A study of Homo sapiens with 9 samples.

Results

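Serum response factor (SRF) and its 5 signal-regulated co-factors were followed in ES-2 cells, an established line of ovarian cancer cells. The set comprised SRF, the MRTF genes MKL1 and MKL2 (current symbols MRTFA and MRTFB), and the TCF genes ELK1, ELK3 and ELK4. These were the rows whose symbol equalled 1 of the 6 names, and each name matched 1 row among 58174 genes. Cells were transfected with a control siRNA (siC), an siRNA pool directed at the mRNA-binding protein IGF2BP1 (siIGF2BP1) or an siRNA pool directed at SRF (siSRF), and total RNA was taken after 72 h, with 3 libraries per group. No other treatment is given in the labels, 1 pool was used per target, and the protein level was not part of these data. Ribosomal RNA was depleted before sequencing, and the libraries held from 6421764 to 9416175 reads on genes. Values are FPKM, read counts scaled by gene length and library size. Levels of different genes were set side by side on this scale, so their order and ratios rest on the gene lengths given with the data. These lengths were 4202 bases for SRF, 6602 for MKL1, 16578 for MKL2, 3398 for ELK1, 4648 for ELK3 and 12142 for ELK4. The lengths of the transcripts present in these cells were not examined. The labels do not say whether the 3 libraries of a group came from separate cultures, so p-values measure the spread between these libraries only.

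SRF is a MADS-box transcription factor that binds DNA as a dimer at the CArG box, a short A/T-rich element flanked by cytosines and guanines. It acts through partners. The MRTFs are held in the cytoplasm by monomeric actin and reach the nucleus when actin polymerizes, where they drive genes of the cytoskeleton. The TCFs are ETS-domain proteins that sit beside SRF, are phosphorylated by MAP kinases and drive immediate early genes. MRTFs and TCFs compete for the same surface of SRF, so that the balance of the partners, and the amount of SRF available to both, bears on which genes are transcribed. The SRF gene is itself a textbook SRF target.

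The sequence before the start site is shown for SRF, whose gene carries the SRF element, and for ELK3 and MKL2, the co-factors whose levels differed most between the knockdowns. Each is the 250 bases upstream of a RefSeq start site on GRCh38.p14, plus strand, read from chr6:43171019-43171268 for SRF, chr12:96194125-96194374 for ELK3 and chr16:14071069-14071318 for MKL2. Capitals mark CArG boxes in SRF and the GC box GGGCGG, an SP1-type element, in the co-factors. The GC box that SRF also holds is left in lower case.
SRF: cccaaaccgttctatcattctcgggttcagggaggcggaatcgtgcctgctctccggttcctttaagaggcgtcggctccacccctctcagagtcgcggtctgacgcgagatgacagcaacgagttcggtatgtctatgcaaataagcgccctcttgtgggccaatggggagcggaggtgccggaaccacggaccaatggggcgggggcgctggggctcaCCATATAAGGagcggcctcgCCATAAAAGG
ELK3: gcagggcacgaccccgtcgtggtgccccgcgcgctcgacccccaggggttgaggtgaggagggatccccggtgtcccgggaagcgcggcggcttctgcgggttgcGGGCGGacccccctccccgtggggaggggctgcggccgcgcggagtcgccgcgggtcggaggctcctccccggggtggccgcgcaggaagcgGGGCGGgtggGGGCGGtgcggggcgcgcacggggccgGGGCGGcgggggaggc
MKL2: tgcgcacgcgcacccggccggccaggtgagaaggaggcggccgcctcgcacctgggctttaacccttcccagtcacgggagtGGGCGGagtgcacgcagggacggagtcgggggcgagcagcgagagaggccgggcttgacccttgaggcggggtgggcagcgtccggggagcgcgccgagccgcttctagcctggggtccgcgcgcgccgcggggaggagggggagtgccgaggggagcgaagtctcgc

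With the first transcribed base counted as 0, the CArG boxes of SRF began at -30 and -10, on chromosome 6 at positions 43171239 to 43171248 and 43171259 to 43171268. A further stretch that departs from the CArG pattern at 1 position began 13 bases after the start, and an ETS core, CCGGAA, the element that TCFs recognize beside SRF, began at -70. RefSeq listed 13 start sites for the 6 genes. In the windows from 250 bases before to 50 bases after them, read on both strands, a CArG box was found in the first window of SRF and in none of the other 12. Over 34943 windows of that length in RefSeq, 1.3% held a CArG box, and 11 windows (0.0315%) held at least 2. The ETS core, present in 17.2% of all windows, was found in the first SRF window and, in 2 copies, in the ELK4 window. The ELK3 window held 5 GC boxes and no ETS core, and the MKL2 window held 1 GC box; 44.9% of all windows had at least 1. CCAAT boxes, present in 34.6% of all windows, were found 4 times in the ELK1 window, 2 times each in the first windows of SRF and MKL1, and 1 time each in the second window of MKL1 and the first of MKL2. No match of one motif overlapped a match of another in these windows, while the GC boxes of MKL1 overlapped each other. These matches describe letters in a window, not occupied sites.

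**Figure D1:**
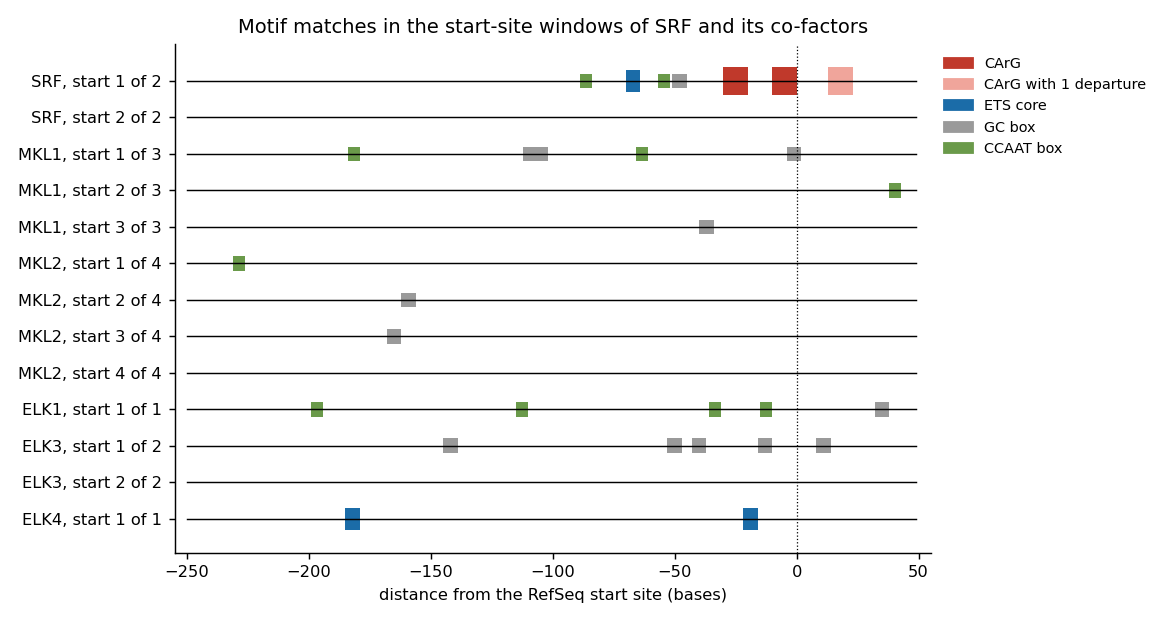
Motif matches (boxes) in the 13 start-site windows of the 6 genes (rows), plotted by distance from the RefSeq start site in bases. The first window of SRF is the only row with CArG boxes (red), beginning at -30 and -10, and ETS cores (blue) appear in the SRF and ELK4 rows.

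The targeted mRNAs were examined first. SRF was at 13.6, 14.1 and 16 FPKM in the siC libraries, at 5.8, 5.42 and 6.8 FPKM in siIGF2BP1 and at 1.63, 1.36 and 1.42 FPKM in siSRF. The 3 groups did not overlap, and siSRF was lowest. IGF2BP1 was at 12.8 ± 0.689 FPKM in siC, 4.11 ± 0.0846 in siIGF2BP1 and 14.2 ± 0.455 in siSRF (SD, n = 3 each). Each targeted mRNA was lowest in the group labelled for it, and in siSRF the IGF2BP1 mRNA was not called against siC (limma adjusted p = 0.119). Its siSRF libraries, at 13.7, 14.6 and 14.4 FPKM, all lay above those of siC, at 12.8, 13.5 and 12.1. The log2 difference was 0.15 (95% interval 0.01 to 0.30), and 39.9% of all genes tested had no overlap in this comparison.

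SRF mRNA was left at 10.1% of the siC mean in siSRF (1.47 ± 0.145 against 14.5 ± 1.28 FPKM, SD, n = 3 each) and at 41.3% in siIGF2BP1 (6.01 ± 0.714 FPKM). On the log2(FPKM + 0.1) scale the difference to siC was -3.22 (standard error 0.107, limma adjusted p = 6.07e-05) in siSRF and -1.26 (0.107, limma adjusted p = 0.00111) in siIGF2BP1. Compared directly, siSRF was lower than siIGF2BP1 (log2 difference -1.96, 95% interval -2.27 to -1.65, limma adjusted p = 0.000132). The siSRF values rest on 44 to 52 reads per library, against 376 to 486 in siC. A difference at least as large in size was found for 0.494% of the genes tested in siSRF and for 10.8% in siIGF2BP1. Because the siRNA pool acts on the transcript that is measured, an effect of SRF loss on its own promoter cannot be told apart from the knockdown in these data. In such bulk libraries, fewer cells with the transcript and less transcript per cell cannot be told apart either.

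**Figure D2:**
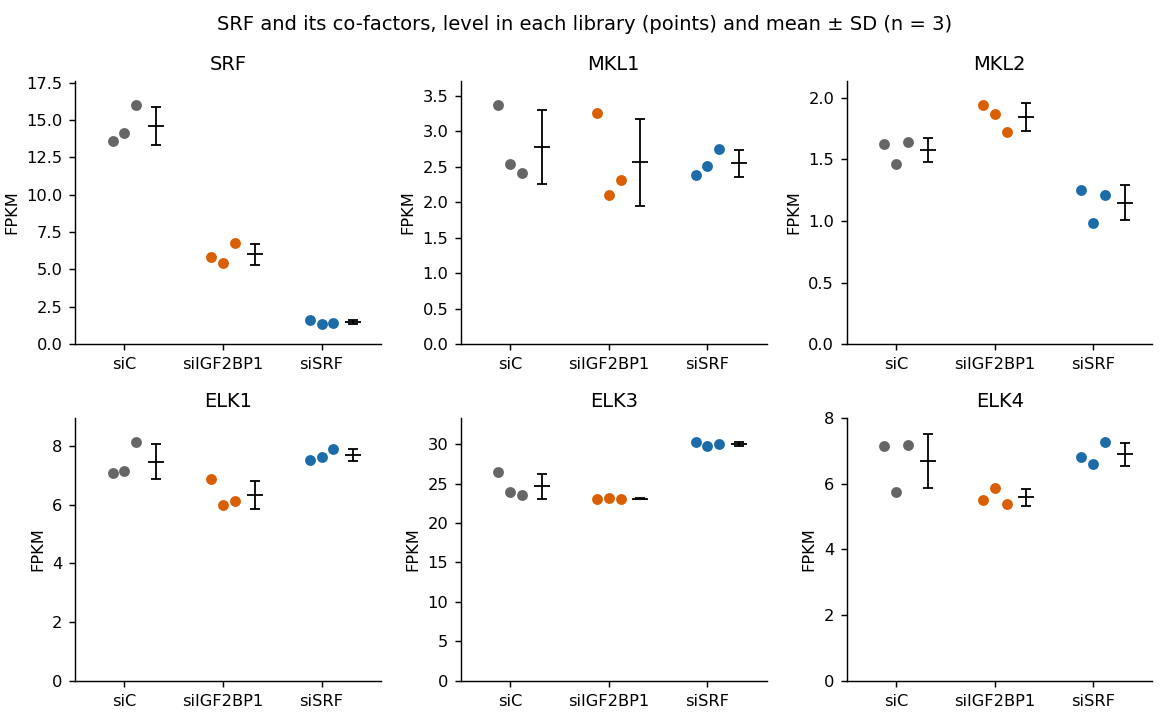
Level of SRF and its 5 co-factors in FPKM (y axis, starting at 0) in each of the 9 libraries (points, by group) with the mean and SD of 3 libraries (bars). SRF falls from 13.6 to 16 FPKM in siC to 1.36 to 1.63 in siSRF, while the co-factors stay within a much narrower range; ELK3 is highest and MKL2 lowest in siSRF.

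None of the 5 co-factors was called upon SRF depletion (siSRF against siC, adjusted p of at most 0.01 by limma-trend), against 12.2% of the 21857 genes tested, of which 5.34% were lower and 6.85% higher. ELK3 and MKL2 were the co-factors whose siSRF libraries did not overlap with siC, in opposite directions, and 39.9% of all genes tested had no overlap. At an unadjusted p under 0.05 these were also the only co-factors. Both were called by limma-voom, run on reads recovered from the FPKM, which called 5123 of the 21857 genes in either direction. The comparison addresses whether the partners' mRNAs move when SRF is removed.

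ELK3 encodes the TCF also known as Net, which can repress its targets until it is phosphorylated. Its level was 26.5, 23.9 and 23.5 FPKM in siC and 30.3, 29.8 and 30 FPKM in siSRF. Every siSRF library lay above every siC library. The means were 24.7 ± 1.63 and 30 ± 0.258 FPKM (SD, n = 3), a 1.22-fold ratio on the fitted scale (log2 difference 0.28, 95% interval 0.15 to 0.42, limma adjusted p = 0.0136, not called). The same difference was called with limma-voom (0.29, adjusted p = 0.00102), with all 9 libraries in 1 fit (limma adjusted p = 0.00298) and without siC replicate 1 (0.34, limma adjusted p = 0.00754). Once trends along GC content and gene length were removed it was 0.16 (limma adjusted p = 0.0958). In the main fit, 60.1% of the genes tested had a difference at least as large in size.

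MKL2, the MRTF gene of lower FPKM, was at 1.62, 1.46 and 1.64 FPKM in siC and at 1.25, 0.986 and 1.21 FPKM in siSRF. Before scaling by length MKL2 had more reads than MKL1 in siC, 164 to 197 per library against 114 to 147. All siSRF libraries lay below all siC libraries. The mean was 73.1% of that in siC (log2 difference -0.43, 95% interval -0.84 to -0.01, limma adjusted p = 0.133). Limma-voom gave -0.47 with an adjusted p of 0.00224. With a pseudocount of 1 FPKM, which weighs heavily on a gene of this level, the difference was -0.26. A difference at least as large in size as that of the main fit was found for 45% of the genes tested.

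The other co-factors overlapped between siSRF and siC. MKL1 had 3.37, 2.54 and 2.41 FPKM in siC and 2.38, 2.51 and 2.75 in siSRF, a log2 difference of -0.11 with a 95% interval from -0.49 to 0.27. ELK1, the founding TCF, had 7.09, 7.15 and 8.14 FPKM in siC and 7.51, 7.62 and 7.9 in siSRF, a log2 difference of 0.04 (-0.14 to 0.23). ELK4, also known as SAP-1, had 7.16, 5.74 and 7.19 FPKM in siC and 6.8, 6.6 and 7.28 in siSRF, a log2 difference of 0.05 (-0.21 to 0.30). The limma adjusted p was 0.686, 0.732 and 0.804. MKL1 had the widest of these intervals, and its libraries spread more in siC (SD 0.522 FPKM) than in siSRF (SD 0.19 FPKM). The first siC library set that spread: without it the MKL1 difference was 0.04, and once trends along GC content and length were removed it was 0.13. In that alternative ELK1 was at 0.21 (limma adjusted p = 0.0725) and ELK4 at -0.12.

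Upon IGF2BP1 depletion, 3.57% of 22292 genes were called lower and 3.55% higher (7.12% in all), and of the co-factors none was called. The co-factor libraries did not overlap with siC for MKL2, ELK1 and ELK3, against 35.6% of all genes. MKL2 stood at 1.94, 1.87 and 1.72 FPKM, all above siC (117% of its mean, log2 difference 0.22, limma adjusted p = 0.372). ELK1 was at 6.87, 5.97 and 6.11 FPKM (84.7% of siC) and ELK3 at 23.1, 23.2 and 23 FPKM (93.5%), all below siC. ELK4 was at 5.5, 5.88 and 5.37 FPKM (83.4%), with 1 siC library, the second, inside that range. MKL1 was at 3.26, 2.1 and 2.32 FPKM and spread as widely as in siC. ELK1 and ELK4 had log2 differences of -0.24 and -0.25 (limma adjusted p = 0.145 and 0.183). Once trends along GC content and length were removed, ELK4 was at -0.40 (limma adjusted p = 0.0206), ELK1 at -0.15 and MKL2 at 0.08. At an unadjusted p under 0.05 only ELK1 passed, and limma-voom called none of the 5 at an adjusted p of at most 0.01.

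**Figure D3:**
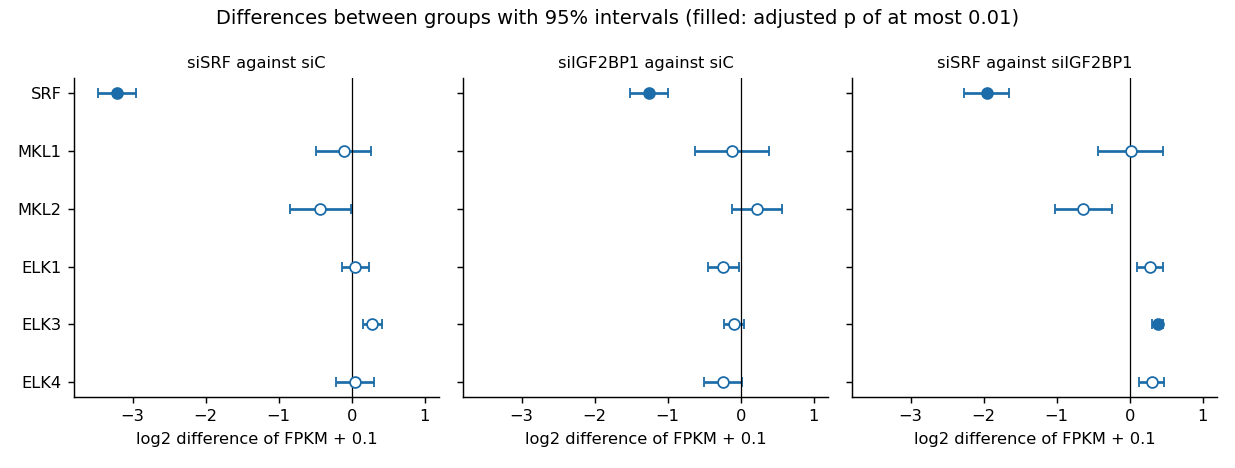
Log2 differences of FPKM + 0.1 (x axis) for the 6 genes (rows) in the 3 comparisons, with 95% intervals; filled points have a limma adjusted p of at most 0.01. SRF is filled in all 3 panels, and ELK3 (0.38) is filled in the direct comparison of the knockdowns.

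The knockdowns were then compared with each other, without the siC libraries. In siSRF against siIGF2BP1, 8.82% of 22311 genes were called lower and 11.2% higher (20% in all). SRF was called lower, and 1 of the 5 co-factors, ELK3, was called higher. ELK3 was 1.3-fold higher in siSRF (log2 difference 0.38, 95% interval 0.30 to 0.46, limma adjusted p = 0.000318). A difference at least as large in size was found for 56.5% of the genes tested. The libraries of the 2 groups were separated for all members but MKL1, against 46.1% of all genes. The ELK3 call was made in 6 of 6 fits that left out a library, and the difference was 0.29 once trends along GC content and length were removed (limma adjusted p = 0.000747). Its libraries scattered less than counting alone would give, with a coefficient of variation of 0.415% in siIGF2BP1 and 0.859% in siSRF against 3.46% and 3.02% from read numbers of 785 to 1261. The standard error of the difference was 0.0317 in the fit and 0.0382 from counting alone, so the fitted error is the smaller one.

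MKL2, ELK1 and ELK4 also differed in the order of their libraries between the knockdowns, and their adjusted p lay between 0.01 and 0.05. MKL2 was lower in siSRF than in siIGF2BP1 (log2 difference -0.64, 95% interval -1.03 to -0.25, limma adjusted p = 0.025), and by limma-voom the difference was -0.70 (adjusted p = 3.13e-06). ELK4 was higher in siSRF by 0.30 (0.13 to 0.47, limma adjusted p = 0.0197; limma-voom adjusted p = 0.000649). ELK1 was higher by 0.28 (0.10 to 0.46, limma adjusted p = 0.0285; limma-voom adjusted p = 0.0348), and by 0.37 once those trends were removed (limma adjusted p = 0.00395). Of the genes tested, 36.1% had a difference at least as large in size as that of MKL2. The share was 64.2% for ELK4 and 66.5% for ELK1. MKL1 was at 0.01 with an interval from -0.43 to 0.45. Thus the 3 TCF mRNAs had positive differences and MKL2 a negative one, while SRF itself was lower in siSRF.

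The order of the group means was then set beside that of SRF. SRF stepped down from siC to siIGF2BP1 to siSRF. The MKL1 means had the same order, at 2.77, 2.56 and 2.55 FPKM, with overlapping libraries. ELK1, ELK3 and ELK4 had their lowest mean in siIGF2BP1 and their highest in siSRF, with siC between them, and MKL2 had the reverse order. For ELK1 and ELK4 the log2 difference of siSRF to siC was 0.04 and 0.05, with overlapping libraries. The sign for ELK4 changed in some alternatives. No co-factor mean followed the order of SRF with separated libraries at each step. The siC libraries are shared by the comparisons with the control, so a difference between the knockdowns was tested by the direct comparison only.

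Within a group, the members were ordered as follows by FPKM, which rests on the given gene lengths. In siC, ELK3 was highest at 24.7 FPKM, followed by SRF at 14.5, ELK1 at 7.46 and ELK4 at 6.7, whose library ranges overlapped each other, then MKL1 at 2.77 and MKL2 at 1.57. In siIGF2BP1, ELK3 (23.1 FPKM) was followed by ELK1 (6.32), SRF (6.01) and ELK4 (5.58), and neighbours among these 3 overlapped. In siSRF, SRF at 1.47 FPKM came after ELK3 (30), ELK1 (7.68), ELK4 (6.89) and MKL1 (2.55), and before MKL2 (1.15), with no overlap between neighbours. SRF thus moved from the second to the fifth place of the 6 genes.

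mRNA ratios within a library give the balance of SRF and its partners. SRF per MRTF (the sum of MKL1 and MKL2) was 2.72, 3.52 and 3.95 in siC, 1.12, 1.37 and 1.68 in siIGF2BP1 and 0.45, 0.388 and 0.358 in siSRF. In siC every library held more SRF than MRTF mRNA per length, and in siSRF every library held less. SRF per TCF (the sum of ELK1, ELK3 and ELK4) was 0.376 ± 0.0401 in siC, 0.172 ± 0.0225 in siIGF2BP1 and 0.033 ± 0.00319 in siSRF (SD, n = 3 each). For both ratios all 3 pairs of groups were separated, each with p = 0.1 by a two-sided exact permutation test, the lowest value this design can reach.

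The balance between the partner families also differed. MRTF per TCF was 0.122, 0.109 and 0.104 in siC, 0.147, 0.113 and 0.117 in siIGF2BP1 and 0.0814, 0.0795 and 0.0878 in siSRF. The siSRF libraries were below all others, at 0.742 of the siC mean and 0.659 of the siIGF2BP1 mean (exact permutation p = 0.1 each), and siC and siIGF2BP1 overlapped (p = 0.4, exact permutation test). With the member of highest FPKM in each family alone (MKL1 per ELK3), siSRF was again below siC without overlap (0.758 of its mean). Here siSRF overlapped with siIGF2BP1 (0.765 of its mean, exact permutation p = 0.2), and siIGF2BP1 was at 0.992 of siC. The removal of trends along GC content and gene length was not applied to the ratios. For the single genes in siSRF against siC, it moved the log2 difference of MKL1 from -0.11 to 0.13 and that of ELK3 from 0.28 to 0.16. How far the ratios depend on such trends was not tested. The TCF sum was 38.8 ± 1.99 FPKM in siC, 35 ± 0.497 in siIGF2BP1 and 44.6 ± 0.589 in siSRF, without overlap between groups. The MRTF sum was 4.35 ± 0.558, 4.4 ± 0.693 and 3.7 ± 0.241 FPKM, and the siSRF libraries were again the lowest. ELK3 made up 63.5% of the TCF sum in siC and 67.3% in siSRF, and MKL1 made up 63.5% of the MRTF sum in siC, 57.7% in siIGF2BP1 and 68.9% in siSRF.

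**Figure D4:**
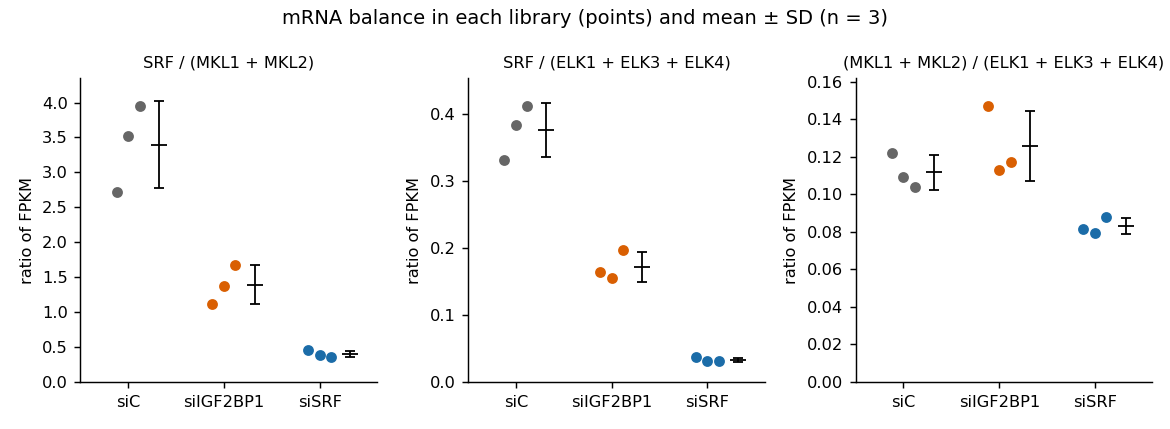
Ratios of FPKM within each library (points, by group, y axes starting at 0) with the mean and SD of 3 libraries (bars) for SRF per MRTF, SRF per TCF and MRTF per TCF. SRF per MRTF falls from 2.72 to 3.95 in siC to 0.358 to 0.45 in siSRF, and MRTF per TCF is lowest in siSRF.

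Genes around SRF were described from 5 lists that do not contain the members: MRTF-SRF targets, TCF-SRF immediate early targets, the MAPK arm that reaches the TCFs, other partners of SRF with the remaining MADS-box genes, and other ETS factors. Of 25 MRTF-SRF targets tested in siSRF, 9 were called lower and 1 higher, beside 5.34% and 6.85% of all genes. Their median log2 difference was -0.29, against 0.007 over all genes. The calponin gene CNN2 was at 8.74 ± 0.608 FPKM against 34.9 ± 1.2 in siC, and VCL, encoding the adhesion protein vinculin, at 19.7 ± 0.771 against 67.1 ± 1.94. The actin gene ACTB was at 263 ± 18 FPKM in siSRF and 713 ± 33.1 in siC (SD, n = 3 each). The higher gene was CTGF, which encodes a matricellular growth factor and is also a YAP target, at 97.6 FPKM against 45.2 in siC. In siIGF2BP1, where SRF was partly reduced, 3 of these 25 genes were called lower and 3 higher, beside 3.57% and 3.55% of all genes, with a median of 0.02. Limma-voom called 6 lower and 5 higher. Over all 22292 genes it called 3805 in either direction, against 1588 by limma-trend. The lower genes were ACTN1, FHL2 and PDLIM7. The higher genes were CNN2 at 62.8 ± 5.85 FPKM, LIMA1 at 13.7 ± 0.23 against 8.25 ± 0.286, and the tropomyosin gene TPM1, at 50.8 ± 1.01 against 20.5 ± 1.21 in siC. In the direct comparison 12 were called lower in siSRF, CNN2 with a log2 difference of -2.83 (limma adjusted p = 1.33e-05), and 4 higher, namely CTGF, ACTN1, FHL2 and PDLIM5, beside 8.82% lower and 11.2% higher among all genes. CTGF, FHL2, PDLIM5 and PDLIM7 are named here after their values were seen.

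Of 12 immediate early genes of the TCF arm tested in siSRF, none was called lower (1 at an unadjusted p under 0.05, and 1 by limma-voom) and 2 were called higher, beside 5.34% and 6.85% of all genes. These were IER5, at 22.6 ± 0.492 FPKM against 12.3 ± 0.461 in siC, and the AP-1 gene JUNB, at 14.2 ± 0.979 against 9.3 ± 0.296. Several genes of this list were near the floor. EGR1, FOS, NR4A1, FOSB and EGR2 were at 0.941, 0.685, 0.635, 0.175 and 0.0399 FPKM in siC. Their differences are poorly measured and understated by the pseudocount, and those tested enter the counts and medians. These 5 genes are named after their values were seen. In siIGF2BP1 1 of 11 was called, FOSL1, an AP-1 gene that fell from 158 ± 9.49 to 112 ± 9.17 FPKM, beside 3.57% of all genes called lower, and the median was -0.35. Limma-voom called 5 lower, the fit of all 9 libraries 4, and 5 were lower at an unadjusted p under 0.05. Over all genes limma-voom called 3805 and the fit of all 9 libraries 2475, in either direction, against 1588 in the main fit. The number over all genes at an unadjusted p under 0.05 is not given here. In the direct comparison 6 of 12 were called higher in siSRF, with IER5, MCL1, JUNB and FOSL1 the clearest by p-value, and 1 lower (ATF3, named after its value was seen), with a median of 0.78, beside 11.2% and 8.82% of all genes. Against siC the immediate early median was 0.12 in siSRF. Between the knockdowns the 3 TCF mRNAs also had positive differences, of which only that of ELK3 was called. The MRTF-SRF targets had a median of -0.56 there. Whether the co-factor mRNAs and these lists are linked was not tested.

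**Figure D5:**
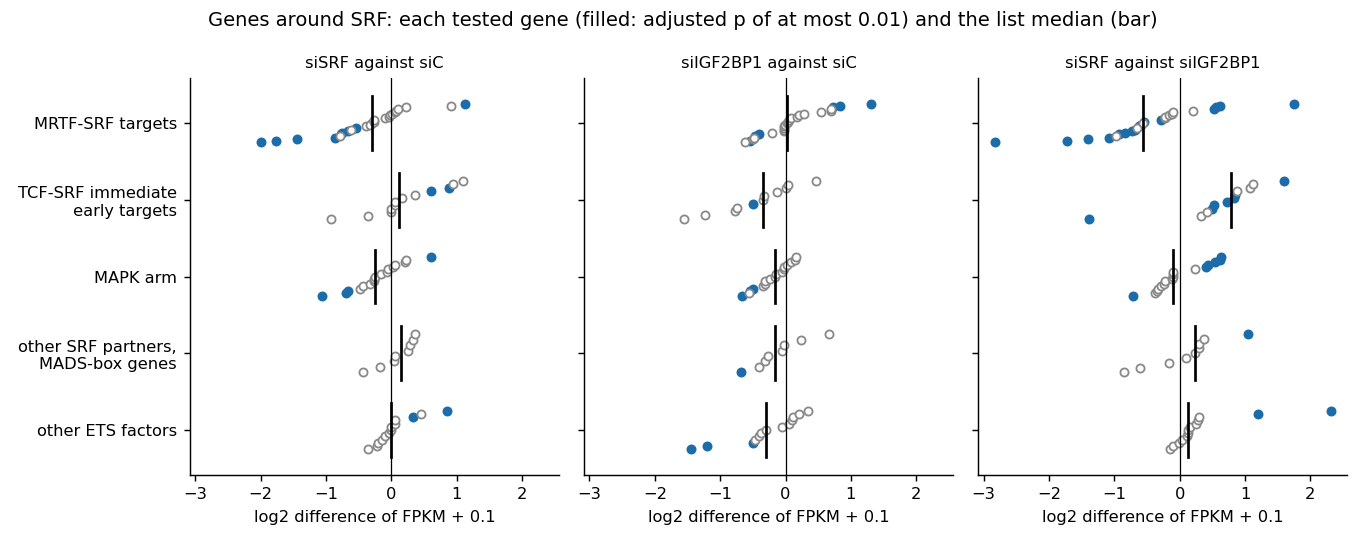
Log2 differences of FPKM + 0.1 (x axis) for every tested gene of the 5 lists (rows) in the 3 comparisons; filled points have a limma adjusted p of at most 0.01 and black bars are list medians. In siSRF the MRTF-SRF targets lie mostly below 0 (median -0.29), and in the direct comparison the immediate early genes lie mostly above 0 (median 0.78).

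In the MAPK arm, which phosphorylates TCFs, 3 of 17 genes were called lower and 1 higher in siSRF, beside 5.34% and 6.85% of all genes. The shares over all genes include genes of low level. With a mean of at least 1 FPKM required, fewer genes were tested and 3140 were called in siSRF, against 2665 in the main fit. Limma-voom called 7 of the arm lower, and 9 were lower at an unadjusted p under 0.05. Over all 21857 genes limma-voom called 5123 in either direction. The number over all genes at an unadjusted p under 0.05 is not given here. MAP2K2, encoding the ERK kinase MEK2, fell from 28.5 ± 1.74 FPKM to 17.9 ± 1.37 in siSRF and 19.4 ± 1 in siIGF2BP1. MAPK3, encoding ERK1, fell in siSRF from 7.02 ± 0.632 to 4.32 ± 0.436 FPKM, the ribosomal S6 kinase gene RPS6KA2 fell from 4.21 ± 0.338 to 1.97 ± 0.182, and the JNK gene MAPK8 rose from 7.5 ± 0.096 to 11.5 ± 0.369. MAP2K1, encoding MEK1, was lower in siIGF2BP1, at 21.8 ± 1.42 against 30.6 ± 0.819 FPKM in siC (limma adjusted p = 0.00385).

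Myocardin (MYOCD), the muscle relative of the MRTFs, was at 0 in all 9 libraries. Of the other partners and MADS-box genes, 8 were tested in siSRF. None was called by limma-trend, beside 12.2% of all genes, and a count of 0 among 8 is near that share. An unadjusted p under 0.05 was found for 2, and limma-voom called 1. HOPX, a homeodomain-only protein that can hold back SRF, was at 7.54 ± 0.83 FPKM in siC, 4.68 ± 0.395 in siIGF2BP1 (limma adjusted p = 0.00952) and 9.77 ± 0.495 in siSRF. It was called higher in siSRF than in siIGF2BP1 (log2 difference 1.05, limma adjusted p = 0.000252). Among 13 other ETS factors, none was called lower and 2 were called higher in siSRF, with 2 lower at an unadjusted p under 0.05 and 0 lower by limma-voom. By limma-trend, 5.34% of all genes were called lower and 6.85% higher. The higher ETS genes were ETS2, at 13 ± 0.431 FPKM against 7.08 ± 0.252 in siC, and ETS1, at 44.8 ± 1.49 against 35.6 ± 1.72. In siIGF2BP1 3 were called lower, beside 3.57% of all genes, with ETS2 at 2.59 ± 0.683, ETV4 at 4.02 ± 0.719 against 9.23 ± 0.253 and ETV5 at 14.4 ± 0.37 against 20.4 ± 0.936 FPKM. ETS2 thus had the same order of groups as ELK3, lowest in siIGF2BP1 and highest in siSRF, and the difference between the knockdowns was 2.31 on the log2 scale (limma adjusted p = 0.000221).

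CArG boxes near the start were also counted over all genes with a window, SRF included. A window with a CArG box was found for 1.6% of 27305 genes with a window, for 10 of 25 MRTF-SRF targets and for 2 of 11 immediate early genes. Of 157 genes with such a window that were tested in siSRF, 20 were called lower (12.7%, beside 5.34% of all genes) and 7 higher (4.46%, beside 6.85%). In siIGF2BP1 14 of 160 were called lower (8.75%, beside 3.57%) and 9 higher (5.62%, beside 3.55%). SRF, the target of the siRNA in siSRF, is among the genes called lower in both comparisons. The median log2 differences of these genes were -0.07 and -0.03, against 0.007 and 0.017 over all genes.

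The genes whose pattern over the 9 libraries was most like that of a member were found among 10380 protein-coding genes of at least 1 FPKM, by the Pearson correlation of log2(FPKM + 0.1). The 9 libraries form 3 groups, so that such a correlation mostly reflects the order of the group means. SRF was most like KCNN4, a potassium channel gene (r = 0.995), CDCA7L (0.990), AARS (0.989), PSAT1 (0.989) and KIF21B (0.989), all with steps from siC to siIGF2BP1 to siSRF that were smaller than those of SRF. KCNN4 had 8.76, 6.76 and 4.83 FPKM as group means. ELK3 was most like GTF2H1 (0.987) and SYT16 (0.986), MKL2 like TESK2 (0.981) and RBMS2 (0.976), ELK1 like B4GALT3 (0.970) and SIPA1L3 (0.967), ELK4 like PBK (0.951) and GLCCI1 (0.948). MKL1 had the lowest such values, with TMEM39B (0.902) and TAF6 (0.875). Among the members themselves, MKL2 and ELK3 had r = -0.877, and ELK1 and ELK4 had 0.768.

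The 6 genes lie apart in the genome (GRCh38, GENCODE 44). SRF (ENSG00000112658) spans chr6:43171269-43181506 on the plus strand with 7 exons, MKL1 chr22:40410281-40636719 on the minus strand with 15, and MKL2 chr16:14071319-14266773 on the plus strand with 17. ELK1 spans chrX:47635521-47650604 on the minus strand with 7 exons, ELK3 chr12:96194375-96269824 on the plus strand with 5, and ELK4 chr1:205597556-205632011 on the minus strand with 5. Other genes of the tables, 12 in all, overlap MKL1, MKL2, ELK3 or ELK4, none with more than 20 reads in a library, and ELK2AP, a pseudogene copy of ELK1, was at 0 in all libraries. The members had at least 101 reads in each library, except SRF in siSRF.

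Markers of the cell type were read beside these results. The keratin genes KRT7, KRT18 and KRT8 were at 101, 43.4 and 8.81 FPKM in siC, while MUC16 was at 0 and PAX8 at 0.155, and 3 of 7 epithelial and Muellerian markers were above 1 FPKM. The sum of these 7 markers was 149 to 161 FPKM in siC, 192 to 220 in siIGF2BP1 and 217 to 222 in siSRF. The fibroblast list (COL1A1, COL1A2 and PDGFRA) summed to 5.7 to 6.86 FPKM in siC, 23.1 to 30.8 in siIGF2BP1 and 7.75 to 9.39 in siSRF, with COL1A2 at 0 in siC. The endothelial list summed to 8.38 to 11, 14.5 to 16.4 and 7.71 to 8.49 FPKM, nearly all from CDH5, and the smooth muscle list to 8.61 to 11.2, 3.61 to 4.09 and 9.98 to 10.9, nearly all from SMTN. Leukocyte markers summed to at most 0.126 FPKM, with PTPRC and CD3E at 0. The part of these markers in the differences of the members was not tested.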

How the data were processed

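Per the labels, total RNA of ES-2 cells was extracted with TRIZOL, depleted of ribosomal RNA and made into libraries with a directional kit. The authors clipped reads with Cutadapt 1.14, aligned them to GRCh38 by HiSat2 2.1.0, summarized them per Ensembl 89 gene by featureCounts 1.5.3 and used edgeR 3.18.1 with TMM scaling. The strand setting of the counting is not given in the sources used here. The authors deposited FPKM per library in 2 tables, 1 for each knockdown with siC, together with fold changes, p-values and FDR of their own comparisons, which were not used. The siC values were identical in both tables (174522 of 174522), and the product of the 9 scaling factors was 1.00000, so that siSRF and siIGF2BP1 can be compared directly. Reads were recovered from FPKM, length and scaling factor, and 100% of values above 0 were whole within 0.01 reads.

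Groups came from the sample titles. Genes averaging 0.1 FPKM or more across the 6 libraries of a comparison were tested on log2(FPKM + 0.1) with limma-trend (limma 3.58.1, R 4.3.3), which understates changes of low genes, with Benjamini-Hochberg adjustment over all genes tested, and called at an adjusted p of at most 0.01. Ratios were given two-sided exact permutation tests (scipy 1.17.1). Alternatives were limma-voom on recovered reads, pseudocounts of 0.01 and 1, other filters, median-ratio rescaling, robust eBayes, all 9 libraries in 1 fit, a replicate block, an adjusted p of at most 0.05 and leaving out each library. Removing trends along GC content and gene length was an alternative chosen after seeing the data.

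The members, lists and tests were chosen with earlier results of these data known, and the lists are descriptive. List genes were named by rule: up to 4 per list and comparison, lowest p first, if called and averaging 1 FPKM or more. Start-site windows came from RefSeq (GRCh38.p14) and all 6 genes matched. Protein and siRNA sequences were not used, and some list and marker genes are not reported here.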

Additional observations from a re-analysis of the deposited data

Results flagged for a closer look

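ELK3 was higher in siSRF than in siIGF2BP1 by a log2 difference of 0.38 (limma adjusted p = 0.000318). Each of its 3 siSRF libraries lay above every siC library, and each of its 3 siIGF2BP1 libraries lay below every siC library. Neither difference of ELK3 to siC was called (limma adjusted p = 0.0136 in siSRF and 0.337 in siIGF2BP1). In siIGF2BP1 that log2 difference was -0.09. MKL2 had a log2 difference of -0.64 (limma adjusted p = 0.025, not called), with all siSRF libraries below and all siIGF2BP1 libraries above the range of siC. Of all genes tested, 39.9% had no overlap with siC in siSRF and 35.6% in siIGF2BP1. The MKL2 differences to siC were not called by limma-trend either (adjusted p = 0.133 and 0.372). Between the knockdowns the ELK3 difference was called. There, 56.5% of the genes tested had a difference at least as large in size as ELK3, and 36.1% as MKL2. The MKL2 difference between them missed 0.01 with limma-trend and passed it with limma-voom (-0.70, adjusted p = 3.13e-06).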

How the results depend on the processing

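SRF kept its direction and its call in every alternative run in all 3 comparisons, and ELK3 kept its call between the knockdowns. Without 1 library, the SRF difference ranged from -3.29 to -3.15 in siSRF, from -1.36 to -1.19 in siIGF2BP1 and from -2.03 to -1.87 between them. ELK3 in siSRF against siC became called by limma-voom (0.29), in 1 fit of all 9 libraries, with a mean of at least 1 FPKM and at an adjusted p of at most 0.05 (0.28 each), and ranged from 0.25 to 0.34 without 1 library (called without siC replicate 1). Between the knockdowns, ELK1 became called with GC content and length taken out (0.37) and at 0.05 (0.28), ELK4 by limma-voom and at 0.05 (0.30 each), and MKL2 by limma-voom (-0.70) and at 0.05 (-0.64). MKL2 in siSRF against siC became called by limma-voom (-0.47). Differences near 0 changed sign. With GC content and length taken out, MKL1 was at 0.13 and ELK4 at -0.12 in siSRF against siC. Without 1 library, ELK4 in siSRF ranged from -0.06 to 0.10, and MKL1 from -0.20 to 0.04 in siSRF, from -0.30 to 0.02 in siIGF2BP1 and from -0.11 to 0.19 between the knockdowns. The causes were not tested.

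The number of genes called moved more. It was 2665 in siSRF, 1588 in siIGF2BP1 and 4460 between them, and limma-voom gave 5123, 3805 and 6912, a threshold of 0.05 gave 5205, 3596 and 7132, and the replicate block 501, 91 and 2075. All 9 libraries in 1 fit gave 2475 in siIGF2BP1. Without 1 library, 946 to 1796 genes were called in siSRF, 436 to 738 in siIGF2BP1 and 2885 to 3358 between them. No shared deviation from the group means was seen for same-numbered libraries (correlations from -0.044 to 0.019 over 14168 genes). This does not show whether same-numbered libraries were handled together. With the block, SRF kept its call in all comparisons (limma adjusted p = 0.00604, 0.00963 and 0.00344), as did ELK3 between the knockdowns (0.00849). Of 72 alternatives of the ratios, 68 moved by less than the SD, but removing trends along GC content and gene length was not among them. Between the knockdowns, the family members of highest FPKM alone gave 0.239 for SRF per MRTF (0.288 with the sums) and 0.765 for MRTF per TCF (0.659). Without 1 library the ranges were 0.262 to 0.322 and 0.628 to 0.719. Rescaling moved the median of all genes by less than 0.1. Read numbers were lowest for SRF in siSRF, 44 to 52 per library.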
